A study of Homo sapiens with 9 samples.

Results

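Chemokines are small secreted proteins that direct the movement of cells. The 10 genes described here are the chemokine receptor gene CXCR4 and the chemokine genes CXCL1, CXCL2, CXCL3, CXCL8, CXCL10, CXCL16, CCL2, CCL5 and CCL20, in a breast cancer cell line carrying an inducible oestrogen receptor beta. They were chosen by gene symbol as a part of the chemokine family, with earlier results of these data known. All 10 were found among the 60240 genes of the count table. Enough reads for a test were present for 8 of them, against 17058 genes in all.

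Chemokines bind receptors of the G protein-coupled family, which signal mainly through inhibitory G proteins and move the cell towards the source of the ligand. CXCR4 is the receptor for CXCL12, and in breast cancer it is known as a receptor that tumour cells use in migration and homing. CXCL1, CXCL2, CXCL3 and CXCL8 attract neutrophils through CXCR2 (CXCL8 also through CXCR1), and tumour cells can make them under the control of NF-κB, a transcription factor switched on by interleukin 1 and tumour necrosis factor.

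Messenger RNA had been sequenced from MDA-MB-231, an established human cell line of basal-type breast cancer. There were 3 groups of 3 libraries. ERβ1 + CLI cells carried a lentiviral vector for GFP, luciferase and isoform 1 of oestrogen receptor beta (gene ESR2), switched on by doxycycline, and were given the ligand CLI for 24 h. ERβ1 cells carried the same vector without the ligand, and control cells, by their labels, carried a vector for GFP and luciferase alone. The deposited table heads the control columns as wild type with doxycycline. They were matched to the labelled control samples by treatment and replicate number, so if those cells had no vector, an effect of the receptor and one of the vector cannot be told apart. All 9 cultures grew in DMEM with 5% fetal bovine serum and received 100 ng/ml doxycycline for 3 days, so that the antibiotic was common to all groups. No control cells with CLI were in the series, and an effect of CLI that needs no receptor cannot be told apart from one that does. The sources used here give neither the dose of CLI nor whether the transduced cells were a pool or a single clone. Whether replicates came from separate cultures is not in the labels either, so p-values measure the spread between these libraries, which may be technical.

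The libraries held 39902456 to 55387538 counts. ESR2 stood between 82.2 and 118 counts per 1e6 counts (CPM) in the 6 libraries with the receptor and between 0.132 and 0.140 CPM in the control libraries, as the labels have it for the receptor. ESR2 does not check which libraries received CLI. The markers VIM, CD44, AXL, EGFR, KRT8 and KRT18 were high in all libraries, and the progesterone receptor gene PGR reached at most 0.124 CPM. ERBB2, which this line is known not to amplify, was at 83.7 to 126 CPM. EPCAM, another gene checked for this line, was at 6.14 to 13.9 CPM and so was present in every library. The classical oestrogen receptor gene ESR1 was at 5.98 CPM in ERβ1 + CLI replicate 2 and 0.765 CPM in ERβ1 + CLI replicate 1, and at or below 0.114 CPM elsewhere. The blood cell genes PTPRC and ITGAM were at 1.37 and 0.870 CPM in ERβ1 replicate 1 and at or below 0.294 CPM elsewhere. Over 18 markers of blood cells, endothelium and fibroblasts, the summed level was 118.3 to 134.9 CPM in ERβ1 + CLI cells, 124.9 to 138.0 CPM in ERβ1 cells and 110.4 to 117.7 CPM in control cells. FCGR3A, MPO and HBB were at 0 counts in every library. Of the 10 markers with enough reads, 4 (COL1A1, LUM, LYZ and PECAM1) rose in ERβ1 cells over control cells, where 10.7% of all genes rose. LUM and LYZ reached at most 0.066 and 0.0932 CPM in control libraries and had enough reads through libraries with the receptor alone. Their rise was thus a condition of testing them. The part of the 18 markers in the chemokine values was not tested.

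In cells with ERβ1, CXCR4 mRNA was about 3-fold lower than in control cells, while the neutrophil chemokine genes CXCL1, CXCL3 and CXCL8 and the membrane-bound chemokine gene CXCL16 were higher, with and without CLI. The rises of CXCL3 with CLI and of CXCL16 without CLI were less stable. Each no longer passed an adjusted p of 0.05 in 5 of the 9 edgeR fits that left out 1 library. In ERβ1 cells over control cells, 7 of the 8 genes tested passed an adjusted p of 0.05 in edgeR's quasi-likelihood test, 6 of them higher and 1 lower. Over all genes tested, 21.4% passed, 10.7% higher and 10.7% lower. CXCL10 and CCL5 had enough reads for the test mainly through libraries with the receptor, so their count among the 8 carries no weight. In ERβ1 + CLI cells over control cells, 5 of the 8 passed, 4 higher and 1 lower, where 26.5% of all genes passed, 13.3% higher and 13.1% lower. In ERβ1 + CLI cells over ERβ1 cells, 0 of the 8 passed in edgeR, and 1 of the 8 had an unadjusted p under 0.05. None passed in DESeq2, which gave no adjusted p for CXCL10 and CCL5 in this comparison. Over all genes tested, 1.47% passed in edgeR, 1.04% higher and 0.428% lower.

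**Figure D1:**
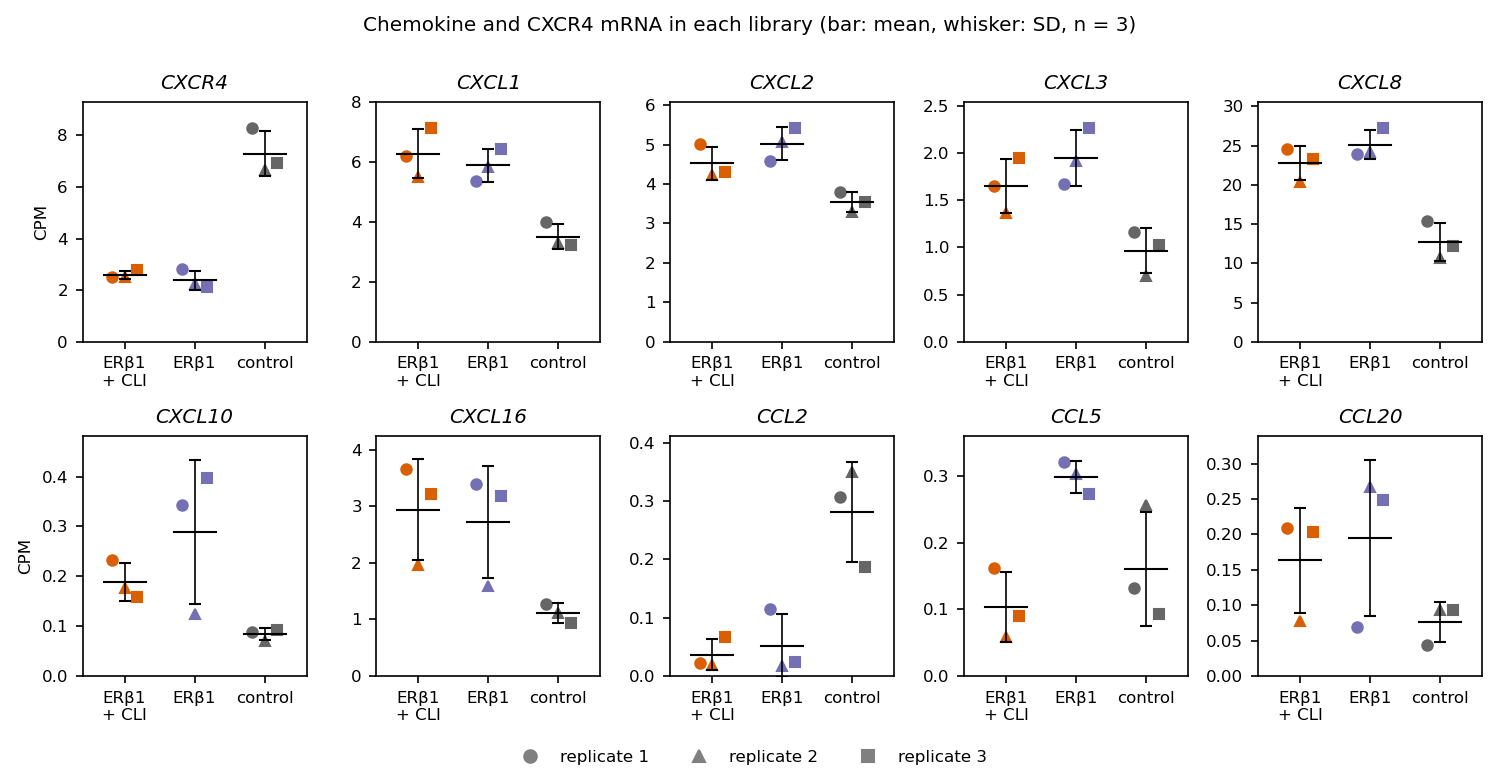
Level of each of the 10 genes (vertical axis, CPM) in each library of ERβ1 + CLI, ERβ1 and control cells; symbols mark the replicate, long bars the mean and whiskers the SD (n = 3). CXCR4 lies at 2.11 to 2.82 CPM in the 6 libraries with the receptor and at 6.65 to 8.27 CPM in the control libraries, and CXCL8 lies in the other direction, while CXCL10, CCL2, CCL5 and CCL20 stay at or below 0.397 CPM.

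CXCR4 lies on the minus strand of chromosome 2 (GRCh38, chr2:136114349-136118165). It had 2.53, 2.50 and 2.78 CPM in ERβ1 + CLI cells, 2.82, 2.23 and 2.11 CPM in ERβ1 cells, and 8.27, 6.65 and 6.92 CPM in control cells. Every library with the receptor lay below every control library, and the libraries with and without CLI overlapped. CXCR4 averaged 2.39 ± 0.377 CPM in ERβ1 cells and 7.28 ± 0.870 CPM in control cells (SD, n = 3 each). The log2 fold change was -1.61 (SE 0.14), or 3.05-fold lower, with an adjusted p of 9.9e-05 in edgeR. ERβ1 + CLI cells averaged 2.60 ± 0.153 CPM (SD, n = 3), a log2 fold change of -1.48 over control cells (SE 0.14, adjusted p = 0.000101 in edgeR). CXCR4 passed when any 1 library was left out, with log2 fold changes of -1.74 to -1.50 in ERβ1 cells and -1.54 to -1.38 in ERβ1 + CLI cells over control cells. Without ERβ1 replicate 1, the library with reads of PTPRC and ITGAM, the log2 fold change in ERβ1 cells was -1.74, and without ERβ1 + CLI replicate 2, the library with reads of ESR1, that in ERβ1 + CLI cells was -1.45. Between ERβ1 + CLI and ERβ1 cells the log2 difference was 0.13, with a 95% interval of -0.20 to 0.45 (adjusted p = 0.798 in edgeR). In bulk RNA, fewer cells with the transcript and less transcript per cell cannot be told apart.

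The 6 genes within 500 kb of CXCR4 that had enough reads did not pass in any of the 3 comparisons. Over all genes tested, 21.4% passed in ERβ1 over control, 26.5% in ERβ1 + CLI over control and 1.47% in ERβ1 + CLI over ERβ1 cells. Counts among 6 genes are too small to be read against these shares. The median log2 fold change of the 6 genes was 0.01 in ERβ1 cells over control cells, beside -1.61 for CXCR4 itself. Among the neighbours, the replication licensing gene MCM6 had a log2 fold change of 0.09 (adjusted p = 0.111 in edgeR).

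CXCL12, the ligand of CXCR4, had 0 counts in all 9 libraries, which allows up to 3 counts per library, or 0.0535 to 0.0745 CPM. ACKR3, which encodes the other receptor of CXCL12, a scavenger that takes up the ligand without G protein signalling, was at a low level in all groups. It is named here after its values were seen, since its mean lay under the 1 CPM asked of the further genes described below. ACKR3 had 0.325, 0.508 and 0.294 CPM in ERβ1 + CLI cells, 0.229, 0.161 and 0.298 CPM in ERβ1 cells, and 0.0220, 0.0467 and 0 CPM in control cells. All libraries with the receptor lay above all control libraries, on 53 counts in ERβ1 + CLI cells, 31 in ERβ1 cells and 3 in control cells in all. Per TMM-scaled count, the ratio was 16.7 in ERβ1 + CLI cells over control cells (exact 95% interval 5.42 to 83.7) and 9.69 in ERβ1 cells over control cells (3.02 to 49.5), intervals that cover counting error only. The log2 fold change was 3.16 in ERβ1 cells over control cells (adjusted p = 0.0102) and 3.89 in ERβ1 + CLI cells over control cells (adjusted p = 0.00216, both edgeR), values that depend on the prior count because the control libraries were near 0. Only libraries with the receptor reached the 0.228 CPM of the filter, so a difference of this kind was a condition of testing ACKR3.

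The genes whose log2 CPM followed CXCR4 most closely over the 9 libraries, among 12624 genes that averaged 2 CPM or more, were SLC7A11, ESD, MMP16, MKNK2 and XBP1. Their Pearson correlations with CXCR4 were 0.992, 0.987, 0.987, 0.987 and 0.984. Of these 12624 genes, 700 had a correlation over 0.9, and all these values rest on the same libraries and the same split between receptor and control cells. MMP16, a membrane-anchored metalloprotease gene, also fell, with 1.33 ± 0.0818 CPM in ERβ1 + CLI cells, 1.37 ± 0.280 CPM in ERβ1 cells and 4.49 ± 0.609 CPM in control cells (SD, n = 3 each; adjusted p over control cells of 0.000149 with and 0.000247 without CLI in edgeR). SLC7A11, the cystine transporter gene, fell less, with 246.5 ± 4.44 CPM in ERβ1 + CLI cells, 234 ± 5.64 CPM in ERβ1 cells and 323 ± 4.72 CPM in control cells (SD, n = 3 each; adjusted p of 3.15e-05 and 1.82e-05 in edgeR). MMP16 and SLC7A11 were picked for following CXCR4 over these same libraries. Their falls follow from that choice, so the adjusted p-values of these genes carry no weight.

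The sequence before the first of the 3 RefSeq starts of CXCR4 is shown because CXCR4 was the called gene that fell. It covers positions -150 to -1 on the gene's strand, at chr2:136118150-136118299 (RefSeq, GRCh38.p14, minus strand).
CXCR4: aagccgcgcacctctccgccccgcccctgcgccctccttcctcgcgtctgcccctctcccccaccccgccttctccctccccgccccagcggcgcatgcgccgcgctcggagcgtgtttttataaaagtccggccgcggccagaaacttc
None of the motifs searched, given with the neutrophil chemokine genes below, had a match in the 300 bases around that start. Around the other starts, the NF-κB pattern (GGGA and CC with any 4 bases between) matched once, at position -54 from the third.

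The neutrophil chemokine genes CXCL8, CXCL1, CXCL3 and CXCL2 lie in that order on chromosome 4 (GRCh38), CXCL8 at chr4:73740506-73743716 and CXCL1 at chr4:73869393-73871242 on the plus strand, CXCL3 at chr4:74036589-74038807 and CXCL2 at chr4:74097035-74099293 on the minus strand. CXCL8 had the highest level of the 10 genes per length of exon, at 10.01 CPM per kb in ERβ1 + CLI cells, 11.0 CPM per kb in ERβ1 cells and 5.59 CPM per kb in control cells. CXCL1 followed at 4.85, 4.55 and 2.72 CPM per kb in ERβ1 + CLI, ERβ1 and control cells, and CXCL2 at 3.01, 3.35 and 2.36 CPM per kb. CXCR4 stood at 1.17, 1.07 and 3.27 CPM per kb in the same groups, so that in control cells its level per length was between those of CXCL8 and CXCL1. CXCL16 stood at 1.05, 0.973 and 0.397 CPM per kb and CXCL3 at 0.744, 0.877 and 0.434 CPM per kb, and the other 4 genes stayed below these.

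CXCL8 encodes interleukin 8. It had 24.6, 20.4 and 23.3 CPM in ERβ1 + CLI cells, 23.9, 24.2 and 27.2 CPM in ERβ1 cells, and 15.3, 10.7 and 12.2 CPM in control cells. All libraries with the receptor lay above all control libraries, and those with and without CLI overlapped. CXCL8 rose in ERβ1 cells over control cells by 0.98 on the log2 scale (SE 0.13, adjusted p = 0.00103 in edgeR) and in ERβ1 + CLI cells over control cells by 0.84 (SE 0.13, adjusted p = 0.00173 in edgeR). Leaving out any 1 library kept CXCL8 past the threshold in both comparisons, with log2 fold changes of 0.88 to 1.14 and 0.73 to 1.00. Between ERβ1 + CLI and ERβ1 cells the log2 difference was -0.14, with a 95% interval of -0.43 to 0.15.

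CXCL1, CXCL2 and CXCL3 encode the GRO chemokines, close relatives of one another. CXCL1 had 6.21, 5.51 and 7.14 CPM in ERβ1 + CLI cells, 5.38, 5.85 and 6.46 CPM in ERβ1 cells, and 4.005, 3.31 and 3.24 CPM in control cells, with no overlap between the libraries with the receptor and the control libraries. It rose by 0.74 on the log2 scale in ERβ1 cells (SE 0.14, adjusted p = 0.00493 in edgeR) and by 0.84 in ERβ1 + CLI cells (SE 0.14, adjusted p = 0.00201 in edgeR), each over control cells. CXCL1 passed in both comparisons when any 1 library was left out. CXCL2 had 5.01, 4.24 and 4.31 CPM in ERβ1 + CLI cells, 4.58, 5.07 and 5.41 CPM in ERβ1 cells, and 3.81, 3.29 and 3.54 CPM in control cells. Its groups with and without the receptor did not overlap either, with 4.24 CPM in the lowest library with the receptor and 3.81 CPM in the highest control library. CXCL2 rose in ERβ1 cells over control cells by 0.50 (SE 0.11, adjusted p = 0.0145 in edgeR), which became an adjusted p of 0.0513 without control replicate 2. In ERβ1 + CLI cells over control cells its log2 fold change was 0.35 (SE 0.11, adjusted p = 0.0517 in edgeR), which did not pass.

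CXCL3 had the lowest level of the neutrophil chemokine genes and the largest SE among them. It had 1.65, 1.37 and 1.94 CPM in ERβ1 + CLI cells, 1.67, 1.91 and 2.26 CPM in ERβ1 cells, and 1.17, 0.700 and 1.02 CPM in control cells. No library with the receptor was as low as a control library. CXCL3 rose by 1.01 on the log2 scale in ERβ1 cells over control cells (SE 0.23, adjusted p = 0.0145 in edgeR) and by 0.77 in ERβ1 + CLI cells over control cells (SE 0.23, adjusted p = 0.0369 in edgeR). The first of these calls was lost without ERβ1 replicate 3 (adjusted p = 0.0506 in edgeR). The second was lost in 5 of the 9 fits that left out 1 library, with an adjusted p of up to 0.117 in edgeR. With CLI, over ERβ1 cells, the log2 differences were 0.09 for CXCL1 (95% interval -0.21 to 0.39), -0.15 for CXCL2 (-0.41 to 0.10) and -0.24 for CXCL3 (-0.74 to 0.27), and none passed.

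Reads may be split between these genes by the counting, since they are near copies. Over their longest open reading frames of 324 bases, CXCL1 was identical to CXCL2 at 93.5% and to CXCL3 at 90.7% of positions, and CXCL2 to CXCL3 at 94.4%, against 52.5 to 54.1% with CXCL8. The sum of CXCL1, CXCL2 and CXCL3 does not depend on that split. It was 12.9, 11.1 and 13.4 CPM in ERβ1 + CLI cells, 11.6, 12.8 and 14.1 CPM in ERβ1 cells, and 8.98, 7.30 and 7.80 CPM in control cells. The summed level was higher in every library with the receptor than in any control library, with log2 fold changes of 0.68 in ERβ1 cells and 0.63 in ERβ1 + CLI cells over control cells (SE 0.11 each), and of -0.05 in ERβ1 + CLI cells over ERβ1 cells.

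Within 500 kb of CXCL1, CXCL2, CXCL3 and CXCL8, the 5 other genes with enough reads around each did not pass in ERβ1 cells over control cells or in ERβ1 + CLI cells over ERβ1 cells. In ERβ1 + CLI cells over control cells 1 of the 5 rose around each, RASSF6 in every case, by 1.54 on the log2 scale (adjusted p = 0.0486 in edgeR). Over all genes tested, 13.3% rose there, while 21.4% passed in ERβ1 over control and 1.47% in ERβ1 + CLI over ERβ1 cells. With 5 genes around each, these counts are too small to be read. RASSF6 had a log2 fold change of 0.74 in ERβ1 cells over control cells (adjusted p = 0.353 in edgeR), and ANKRD17, near CXCL8, had 0.13 (adjusted p = 0.0619 in edgeR).

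**Figure D2:**
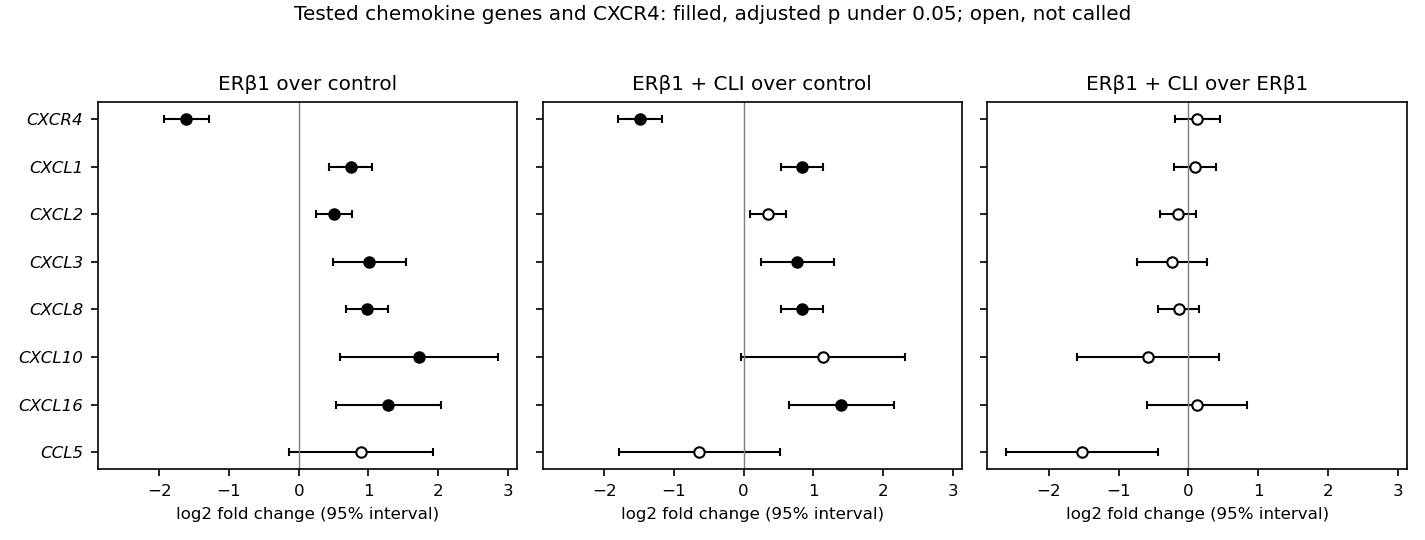
Log2 fold change (horizontal axis) with its 95% interval for the 8 genes tested, in ERβ1 over control, ERβ1 + CLI over control and ERβ1 + CLI over ERβ1 cells; filled points passed an adjusted p of 0.05. CXCR4 lies at -1.61 and -1.48 in the comparisons with control cells while the CXC ligands lie to the right of 0, and the CCL5 interval is the one that misses 0 for ERβ1 + CLI over ERβ1 cells, with an open point.

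The promoters of the neutrophil chemokine genes are shown because these genes rose together in ERβ1 cells over control cells and share a stretch of sequence. Each covers positions -150 to -61 before the RefSeq start on the gene's strand (RefSeq, GRCh38.p14), CXCL1 at chr4:73869243-73869332, CXCL2 at chr4:74099256-74099345, CXCL3 at chr4:74038750-74038839 and CXCL8 at chr4:73740419-73740508. GENCODE places the outermost start of CXCL2, CXCL3 and CXCL8 further upstream. Capitals mark matches to the NF-κB pattern (GGGA and CC with any 4 bases between) on either strand and, in CXCL8, also the stretch GGAATTTCC and the AP-1 pattern TGANTCA.
CXCL1: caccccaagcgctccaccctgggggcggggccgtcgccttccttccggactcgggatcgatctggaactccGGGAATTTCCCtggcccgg
CXCL2: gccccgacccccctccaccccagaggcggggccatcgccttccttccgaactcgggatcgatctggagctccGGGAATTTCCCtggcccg
CXCL3: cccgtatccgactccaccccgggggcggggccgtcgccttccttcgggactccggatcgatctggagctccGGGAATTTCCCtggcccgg
CXCL8: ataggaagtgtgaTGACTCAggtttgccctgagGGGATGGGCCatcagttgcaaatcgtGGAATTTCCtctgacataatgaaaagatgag
The capitals GGGAATTTCCC begin at position -79 in CXCL1 and CXCL3 and at -78 in CXCL2, and hold overlapping matches on both strands. In CXCL8 the NF-κB pattern matched at another site, at -117, while GGAATTTCC, at -91, lacks the first letter of the pattern. Over 300 bases around the start, CXCL1 and CXCL3 were identical at 82.5% of aligned positions, CXCL1 and CXCL2 at 72.1%, and each of the 3 with CXCL8 at 42.6 to 44.9%, so the shared site among CXCL1, CXCL2 and CXCL3 lies in sequence that is alike as a whole.

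RefSeq promoters (250 bases before to 50 after the start) were matched for 7 of the 10 genes, leaving out CXCL16, CCL2 and CCL5. The NF-κB pattern, searched on both strands like the others, matched in 6 of the 7 with CXCR4 read at the first of its 3 starts, all but CXCR4, and in 25.6% of all 35116 promoters. A looser pattern, GGG and CC with any 5 bases between, which includes every match of the first, matched in the same 6 genes and in 58.7% of all promoters. Counting all 3 starts of CXCR4, both patterns matched in it too, the first at 1 start and the looser one at 2. The stretch GGAATTTCC, which overlaps the first pattern in CXCL1, CXCL2, CXCL3 and CXCL10, was picked after these sequences had been read, and matched in 5 of the 7 genes and 0.461% of all promoters. The AP-1 pattern TGANTCA matched in CXCL8 alone of the 7 and in 7.71% of all promoters. The oestrogen response element, GGTCA and TGACC with any 3 bases between, matched in none of the 7 genes and in 20 promoters of the whole table. These matches are letters in the reference sequence, and binding was not measured.

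**Figure D3:**
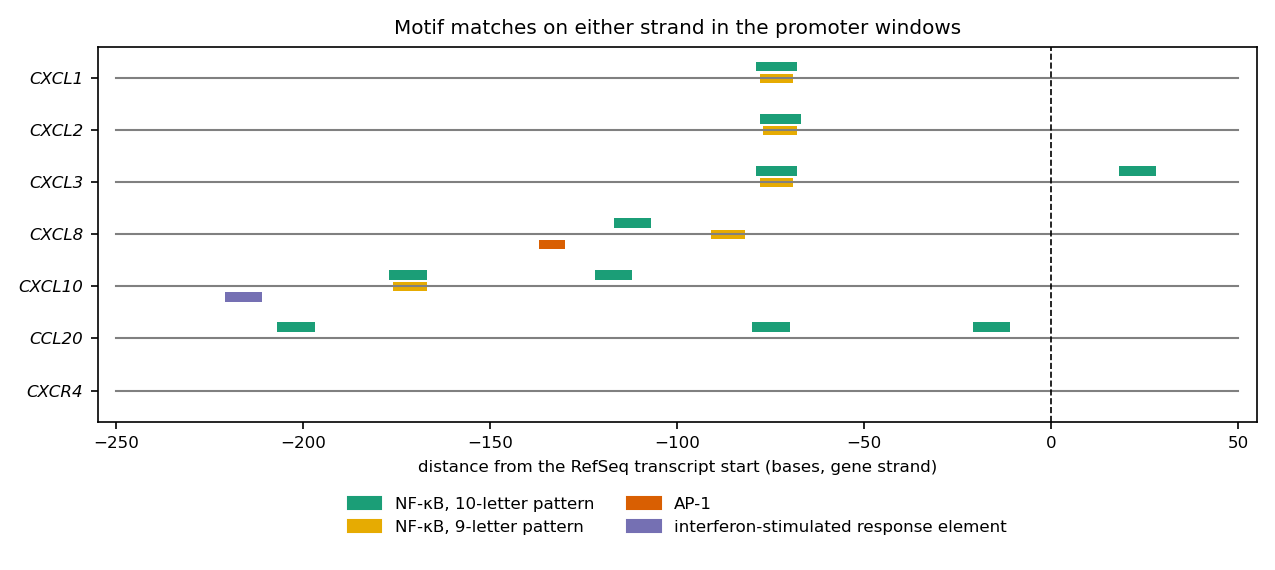
Matches to the motifs on either strand, drawn to scale along the promoters of the 7 genes with a RefSeq entry (horizontal axis, bases from the RefSeq transcript start, from 250 before to 50 after); for CXCR4 the first of 3 starts is drawn. The 10-letter NF-κB pattern stands at -79 in CXCL1 and CXCL3 and at -78 in CXCL2, an AP-1 match lies in CXCL8 and an interferon-stimulated response element match in CXCL10, and CXCR4 holds no match.

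Most of the receptors of these ligands described here were nearly absent from the same cells. CXCR1 and CXCR2 had 0 counts in all 9 libraries, and so did CCR6, the receptor of CCL20. CXCR3, the receptor of CXCL10, had 1 count in all, CXCR6, the receptor of CXCL16, had 5, and CCR2, the receptor of CCL2, had 5. CCR1, a receptor of CCL5, was the most abundant of them, at 0.751 CPM in ERβ1 + CLI cells, 1.18 CPM in ERβ1 cells and 0.703 CPM in control cells, and did not pass in ERβ1 cells over control cells (log2 fold change 0.75, adjusted p = 0.0711 in edgeR).

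**Figure D4:**
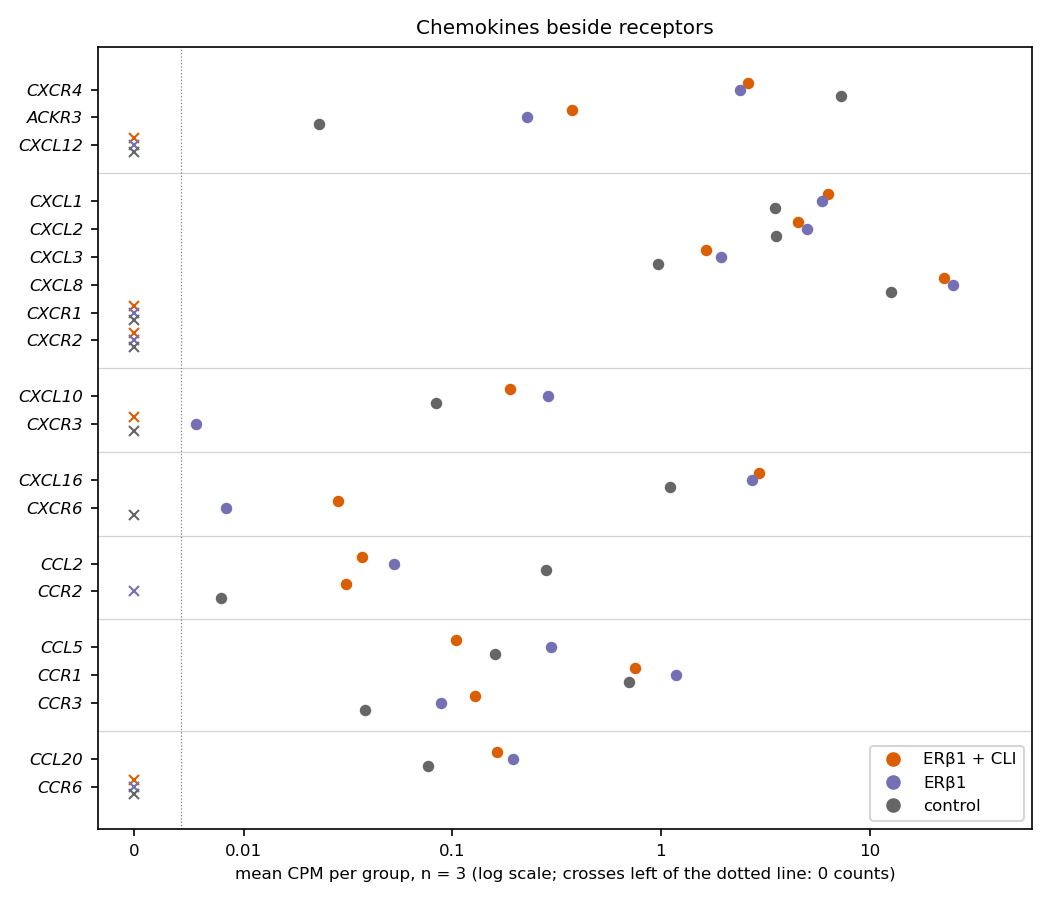
Mean level per group (horizontal axis, CPM on a log scale, n = 3 libraries) of each chemokine gene beside genes of receptors that bind it, and of CXCR4 beside CXCL12 and ACKR3; crosses left of the dotted line mark 0 counts in the group. The ligand genes of the neutrophil receptors lie near or above 1 CPM, where CXCR1 and CXCR2 have 0 counts, and ACKR3 is higher with the receptor where CXCR4 is lower.

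CXCL16 encodes a chemokine that is made as a membrane protein, where it can also take up oxidised lipoprotein, and that is released by cleavage. The gene lies at chr17:4733526-4739922 on the minus strand (GRCh38), and its end overlaps MED11, so that without counting by strand, which is not stated, their reads could mix. MED11 had a log2 fold change of 0.09 in ERβ1 cells over control cells (adjusted p = 0.506 in edgeR). CXCL16 had 3.66, 1.95 and 3.21 CPM in ERβ1 + CLI cells, 3.39, 1.59 and 3.18 CPM in ERβ1 cells, and 1.28, 1.12 and 0.932 CPM in control cells. Replicate 2 was the lowest library in both groups with the receptor and still lay above all control libraries. CXCL16 rose by 1.28 on the log2 scale in ERβ1 cells (SE 0.33, adjusted p = 0.0247 in edgeR) and by 1.40 in ERβ1 + CLI cells (SE 0.33, adjusted p = 0.0138 in edgeR), each over control cells. The first call was lost in 5 of 9 fits that left out 1 library, those without ERβ1 replicate 1, ERβ1 replicate 3 or any control library (adjusted p of up to 0.081 in edgeR), and the second was lost without control replicate 3 (adjusted p = 0.0508 in edgeR). Without replicate 2 of both groups with the receptor, the log2 fold changes were 1.56 and 1.63 (adjusted p = 0.00191 and 0.00104 in edgeR). This setting was added after seeing the data. It left out the lowest library of each of these groups, which raises the fold change by itself, so it lends no support. The log2 difference between ERβ1 + CLI and ERβ1 cells was 0.12 (SE 0.315), with a 95% interval of -0.60 to 0.83, in the fit without pairs. With the replicate number as a block, the difference was 0.13 (SE 0.23, adjusted p = 0.872 in edgeR). With that block within the 6 libraries with the receptor, it was 0.14 (SE 0.141, adjusted p = 0.741 in edgeR). That last setting was added after seeing the data.

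Of the 27 other genes within 500 kb of CXCL16 with enough reads, 2 rose and 2 fell in ERβ1 cells over control cells. Over all genes tested, 10.7% rose and 10.7% fell, so these counts do not stand above the background. The 2 that fell were SPAG7 and PFN1, with log2 fold changes of -0.18 and -0.10 (adjusted p = 0.0357 and 0.0362 in edgeR). The 2 that rose were SPNS2, which encodes a transporter of sphingosine 1-phosphate, with a log2 fold change of 0.80 (adjusted p = 0.00826 in edgeR), and ARRB2, described below.

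CXCL10, an interferon-induced chemokine gene whose protein attracts T cells through CXCR3, was near the limit of counting. It lies at chr4:76021117-76023497 on the minus strand (GRCh38). It had 10, 9 and 7 counts in ERβ1 + CLI libraries, 15, 7 and 16 counts in ERβ1 libraries, and 4, 3 and 4 counts in control libraries. In CPM these were 0.232, 0.176 and 0.158 in ERβ1 + CLI cells, 0.343, 0.125 and 0.397 in ERβ1 cells, and 0.0880, 0.0700 and 0.0932 in control cells. No library with the receptor was as low as a control library, though ERβ1 replicate 2 came close. The log2 fold change in ERβ1 cells over control cells was 1.72 (SE 0.50, adjusted p = 0.0392 in edgeR), and the gene had enough reads for the test only through 3 libraries with the receptor, so a difference of this kind was a condition of testing it. The call was lost in 8 of 9 fits that left out 1 library (adjusted p of up to 0.126 in edgeR) and in DESeq2 (adjusted p = 0.075). In ERβ1 + CLI cells over control cells the log2 fold change was 1.14 (SE 0.52, adjusted p = 0.145 in edgeR), and over ERβ1 cells it was -0.58, with a 95% interval of -1.60 to 0.44.

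The promoter of CXCL10 is shown because it holds both kinds of inducible motif. It covers positions -230 to -100 at chr4:76023597-76023727 (RefSeq, GRCh38.p14, minus strand), and capitals mark the interferon-stimulated response element pattern (GAAA and GAAA with any 2 bases between) at -221 and the NF-κB pattern at -177 and -122.
CXCL10: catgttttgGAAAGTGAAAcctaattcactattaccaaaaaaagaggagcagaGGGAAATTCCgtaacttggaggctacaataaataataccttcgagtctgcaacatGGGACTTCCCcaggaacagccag
The interferon-stimulated pattern matched in CXCL10 alone of the 7 genes and in 3.57% of all promoters. CXCL11, the neighbouring interferon-induced ligand of CXCR3, had 29 counts in ERβ1 + CLI cells, 40 in ERβ1 cells and 27 in control cells in all, and its log2 fold change in ERβ1 cells over control cells was 0.49 (adjusted p = 0.573 in edgeR). CXCL9, the third of these ligands, had 0 counts in all libraries.

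The CC chemokine genes CCL2, CCL5 and CCL20 were all at or below 0.350 CPM. CCL2, the gene of the monocyte attractant that binds CCR2, lies at chr17:34255218-34257203 on the plus strand (GRCh38). It had 0.0232, 0.0195 and 0.0677 CPM in ERβ1 + CLI cells, 0.114, 0.0178 and 0.0248 CPM in ERβ1 cells, and 0.308, 0.350 and 0.186 CPM in control cells. Every control library lay above every library with the receptor, on 5 counts in ERβ1 + CLI cells, 7 in ERβ1 cells and 37 in control cells in all. CCL2 had too few reads for the filtered fit. In edgeR without a filter, where 9.59% of genes passed in ERβ1 cells over control cells and 12.4% in ERβ1 + CLI cells over control cells, its log2 fold changes were -2.39 (SE 0.72, adjusted p = 0.0546) and -2.86 (SE 0.75, adjusted p = 0.0223). In limma on the deposited log2 CPM, where 19.1% and 24.1% of 18934 genes passed, the values were -1.84 (SE 0.46, adjusted p = 0.024) and -2.07 (SE 0.46, adjusted p = 0.0117). CCL2 thus passed for ERβ1 + CLI cells over control cells in both fits and for ERβ1 cells over control cells in limma alone. Like CXCR4 it was lower with the receptor, but at a level of 8 to 15 counts in each control library.

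CCL5, the gene of a T cell and monocyte attractant that binds CCR1 and CCR3, lies at chr17:35871491-35880793 on the minus strand (GRCh38). It had 0.162, 0.0586 and 0.0903 CPM in ERβ1 + CLI cells, 0.320, 0.303 and 0.273 CPM in ERβ1 cells, and 0.132, 0.257 and 0.0932 CPM in control cells. ERβ1 cells held the 3 highest libraries, and ERβ1 + CLI and control cells overlapped. CCL5 was the gene of the 8 tested with an unadjusted p under 0.05 between ERβ1 + CLI and ERβ1 cells, where 12.8% of all genes had one. It had enough reads for the test through all 3 ERβ1 libraries and 1 control library but no ERβ1 + CLI library, so a difference of this kind was favoured by the filter. Its log2 difference there was -1.53, with a 95% interval of -2.61 to -0.44, on 14 counts in ERβ1 + CLI cells and 42 in ERβ1 cells in all, and the adjusted p of 0.209 in edgeR did not pass. With 1 library left out it was -1.99 to -1.23 (adjusted p of 0.199 to 0.439 in edgeR). The log2 fold change in ERβ1 cells over control cells was 0.89 (SE 0.45, adjusted p = 0.209 in edgeR), and in ERβ1 + CLI cells over control cells it was -0.64 (SE 0.51, adjusted p = 0.409 in edgeR).

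CCL20, the gene of the ligand of CCR6, lies at chr2:227805739-227817564 on the plus strand (GRCh38). It had 0.209, 0.0782 and 0.203 CPM in ERβ1 + CLI cells, 0.0687, 0.268 and 0.248 CPM in ERβ1 cells, and 0.0440, 0.0933 and 0.0932 CPM in control cells. The lowest library of each group with the receptor lay within the range of the control libraries. In edgeR without a filter the log2 fold changes over control cells were 1.34 in ERβ1 cells (adjusted p = 0.294) and 1.06 in ERβ1 + CLI cells (adjusted p = 0.425), and neither passed.

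For each of the 8 tested genes, the ERβ1 and control libraries did not overlap, and the same held for the ERβ1 + CLI and control libraries in 7 of the 8, all but CCL5. Over all genes tested, 39.6 and 41.7% had groups that did not overlap in these comparisons, which share the control libraries. Both counts include CXCL10 and the first also CCL5, which had enough reads for the test mainly through libraries with the receptor. These genes carry no weight in the counts. Between ERβ1 + CLI and ERβ1 cells 1 of the 8 genes did not overlap, against 18.8% of all genes. That gene was CCL5, whose place among the tested genes rested on its ERβ1 libraries, so nothing is read from this count. With 3 libraries against 3, an exact permutation test cannot go below a p of 0.1, so single genes rest on the model across all genes.

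Most other chemokine genes were silent in these cells. Of 37 further ligand genes, 19 had 0 counts in all libraries and 5 had enough reads for the test. In ERβ1 cells over control cells 1 of these 5 rose and 1 fell, where 10.7% of all genes rose and 10.7% fell. Their median log2 fold change was 0.60, beside -0.000569 over all tested genes. In ERβ1 + CLI cells over control cells 2 rose and 1 fell, where 13.3% of all genes rose and 13.1% fell. In ERβ1 + CLI cells over ERβ1 cells none passed in edgeR. Counts among 5 genes are too small to be read. CCL28, a mucosal chemokine gene, rose, with 4.29 ± 0.288 CPM in ERβ1 + CLI cells, 4.67 ± 0.980 CPM in ERβ1 cells and 3.08 ± 0.152 CPM in control cells (SD, n = 3 each; adjusted p over control cells of 0.0476 with and 0.0233 without CLI in edgeR). CX3CL1, which encodes fractalkine, a chemokine anchored in the membrane like CXCL16, fell instead. It had 0.708 ± 0.122 CPM in ERβ1 + CLI cells, 0.821 ± 0.0588 CPM in ERβ1 cells and 1.52 ± 0.118 CPM in control cells (SD, n = 3 each), with log2 fold changes over control cells of -1.10 and -0.88 (adjusted p = 0.00266 and 0.00992 in edgeR). CXCL14, named after its values were seen because its mean is under 1 CPM, had 0.510, 0.508 and 0.632 CPM in ERβ1 + CLI cells, 0.206, 0.196 and 0.174 CPM in ERβ1 cells, and 0.0220, 0 and 0.116 CPM in control cells. The 3 groups of CXCL14 did not overlap, and it passed in ERβ1 + CLI cells over control cells (adjusted p = 0.00412 in edgeR) but not in ERβ1 cells over control cells (adjusted p = 0.0756) or between the groups with the receptor (adjusted p = 0.268). It had enough reads for the test through the ERβ1 + CLI libraries alone, so that its being higher there was a condition of testing it.

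Of 22 further receptor genes, 6 had 0 counts in all libraries and 4 had enough reads for the test. ACKR3 was the one that passed, over control cells in both comparisons, where 21.4 and 26.5% of all genes passed. Its being higher with the receptor was a condition of testing it, as given above. CCRL2, an atypical receptor gene and the most abundant of the 4, had 19.2 CPM in ERβ1 + CLI cells, 19.3 CPM in ERβ1 cells and 20.3 CPM in control cells, with a log2 fold change of -0.07 in ERβ1 cells over control cells (adjusted p = 0.54 in edgeR).

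Of 27 tested genes that carry signals from chemokine receptors, 5 rose and 3 fell in ERβ1 cells over control cells, and 8 rose and 3 fell in ERβ1 + CLI cells over control cells. Over all genes tested, 10.7% rose and 10.7% fell in the first comparison and 13.3% rose and 13.1% fell in the second, so the falls were near the background. Among the rises in both comparisons were PREX1 and RGS16, at means of 0.092 and 0.190 CPM in control cells. These had enough reads for the test through libraries with the receptor alone, so their rise was a condition of testing them and carries no weight in the counts. The 27 genes had medians of 0.05 and 0.11 on the log2 scale. The beta-arrestin genes, whose proteins end G protein signalling and bring receptors into the cell, both rose. ARRB1 had 37.1 ± 1.43 CPM in ERβ1 + CLI cells, 28.97 ± 2.47 CPM in ERβ1 cells and 19.3 ± 1.66 CPM in control cells (SD, n = 3 each; adjusted p over control cells of 5.63e-05 with and 0.00118 without CLI in edgeR). ARRB2 had 27.8 ± 0.717 CPM in ERβ1 + CLI cells, 26.3 ± 0.834 CPM in ERβ1 cells and 18.4 ± 0.291 CPM in control cells (SD, n = 3 each; adjusted p of 3.9e-05 and 0.000136 in edgeR). GNB1, a beta subunit gene of G proteins, and CDC42, a GTPase gene of cell movement, fell. GNB1 had log2 fold changes over control cells of -0.48 in ERβ1 + CLI and -0.39 in ERβ1 cells (adjusted p = 1.91e-05 and 9.82e-05 in edgeR), and CDC42 of -0.41 and -0.34 (adjusted p = 2.01e-05 and 9.12e-05 in edgeR). The inhibitory G protein genes GNAI2 and GNAI3, which act next to CXCR4, had log2 fold changes of 0.08 and 0.05 in ERβ1 cells over control cells and did not pass (adjusted p = 0.198 and 0.404 in edgeR). No gene of these 27 passed between ERβ1 + CLI and ERβ1 cells in edgeR.

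Of 24 tested genes of the pathways that induce chemokines, 9 rose and none fell in ERβ1 cells over control cells, and 11 rose and none fell in ERβ1 + CLI cells over control cells, where 10.7 and 13.3% of all genes rose. The medians were 0.19 and 0.25 on the log2 scale. IL1B, which encodes interleukin 1 beta, had 13.1, 12.1 and 13.4 CPM in ERβ1 + CLI cells, 17.7, 16.1 and 16.9 CPM in ERβ1 cells, and 7.68, 6.0 and 5.73 CPM in control cells. The 3 groups did not overlap, with ERβ1 cells the highest. IL1B rose over control cells by 0.99 with CLI and 1.39 without (adjusted p = 0.000262 and 6.26e-05 in edgeR), and its log2 difference of -0.39 between ERβ1 + CLI and ERβ1 cells did not pass (adjusted p = 0.147). LTB, which encodes lymphotoxin beta, had 4.45, 4.81 and 4.88 CPM in ERβ1 + CLI cells, 4.28, 3.39 and 3.58 CPM in ERβ1 cells, and 1.94, 1.21 and 1.82 CPM in control cells (adjusted p over control cells of 0.000368 with and 0.00203 without CLI in edgeR).

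Smaller rises were seen for TNFRSF1A, a receptor gene for tumour necrosis factor, and IRF1, an interferon-regulated transcription factor gene. TNFRSF1A had log2 fold changes over control cells of 0.32 in ERβ1 + CLI and 0.19 in ERβ1 cells (adjusted p = 0.00244 and 0.0342 in edgeR), and IRF1 of 0.29 and 0.19 (adjusted p = 0.00263 and 0.0222 in edgeR). Of the NF-κB subunit genes on the list, RELB rose, with log2 fold changes over control cells of 0.41 in ERβ1 + CLI and 0.42 in ERβ1 cells (adjusted p = 0.00263 and 0.00311 in edgeR). RELA had a log2 fold change of 0.23 and NFKB1 of -0.25 in ERβ1 cells over control cells, and neither passed (adjusted p = 0.249 and 0.205 in edgeR). Among the targets and inhibitors of NF-κB on the list, TNFAIP3 was one of the 9 that rose. It had 24.5, 27.7 and 27.1 CPM in ERβ1 + CLI cells, 31.7, 25.3 and 29.3 CPM in ERβ1 cells, and 18.7, 11.8 and 13.5 CPM in control cells. No gene of the 24 passed between ERβ1 + CLI and ERβ1 cells in edgeR.

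Of 12 tested genes that cut chemokines or shorten the life of their mRNA, 3 rose and 1 fell in ERβ1 cells over control cells, and 6 rose and 1 fell in ERβ1 + CLI cells over control cells, beside 10.7% rising and 10.7% falling over all genes in the first comparison and 13.3% and 13.1% in the second. The 12 genes had medians of 0.05 and 0.18 on the log2 scale. DPP4, whose protease removes the ends of CXCL10, CXCL12 and CCL5, had 2.53 ± 0.326 CPM in ERβ1 + CLI cells, 1.75 ± 0.289 CPM in ERβ1 cells and 0.765 ± 0.152 CPM in control cells (SD, n = 3 each; adjusted p over control cells of 0.000376 with and 0.00389 without CLI in edgeR). ADAM10, whose protease sheds CXCL16 and CX3CL1 from the membrane, rose in ERβ1 + CLI cells over control cells by 0.24 (adjusted p = 0.00146 in edgeR) and had a log2 fold change of 0.09 in ERβ1 cells over control cells, which did not pass (adjusted p = 0.119). ZFP36L1, whose protein binds AU-rich mRNA and speeds its decay, rose by 0.45 with CLI and 0.43 without (adjusted p = 2.33e-05 and 4.89e-05 in edgeR). MMP1, a collagenase gene, was the one gene of all these lists that passed between ERβ1 + CLI and ERβ1 cells. It had 203.5 ± 10.2 CPM in ERβ1 + CLI cells, 265 ± 5.22 CPM in ERβ1 cells and 309 ± 7.82 CPM in control cells (SD, n = 3 each), and fell by 0.38 on the log2 scale with CLI over ERβ1 cells (SE 0.04, adjusted p = 0.00263 in edgeR).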

How the data were processed

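Expression of 10 genes was compared over 9 libraries in 3 groups. Per the labels' protocols, stranded mRNA libraries were sequenced as single reads of 101 cycles, and the submitters' processing notes name Salmon 1.2.1, edgeR 3.30.3 and R 4.0.2, after bcl2fastq 2.20, Trimmomatic 0.38 and FastQC, and the build GRCh38. The sources used here give no settings or annotation release. The authors deposited estimated counts per gene for 60240 genes and log2 CPM, with TMM scaling per the labels, for 18934 genes. The cell line label counts upward from MDA-MB-231 over the samples, but the growth text gives that line only, and each sample was taken to be that line.

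The estimated counts were rounded to whole numbers and fitted in R 4.3.3 with edgeR 4.0.16 (quasi-likelihood, TMM, filterByExpr by group, 1 coefficient per group, all 9 libraries, 2-sided). The filter asked for 0.228 CPM in 3 libraries, which 17058 genes met. Adjusted p-values are those of Benjamini and Hochberg over these genes, and a gene passed at an adjusted p under 0.05. CPM are counts per 1e6 TMM-scaled counts. The SE is the log2 fold change divided by the square root of F, and intervals use the t quantile of the test. Limits for 0 counts cover counting error only. Alternatives used DESeq2 1.42.0, limma 3.58.1, other scalings, filters and sets of libraries. The fits were tested on simulated counts. Positions came from GENCODE 29 and promoters from RefSeq (GRCh38.p14). Identities were computed with Biopython 1.88, and figures with Python 3.11.15 and matplotlib 3.10.9.

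The genes, the lists and the tests were chosen with earlier results of these data known. All 10 genes are named, and from each further list up to 4 genes that passed, with the smallest adjusted p and a mean of at least 1 CPM. RELA, RELB, NFKB1, TNFAIP3, GNAI2, GNAI3, CCR1, CCRL2, CXCL11 and the genes near the 10 fall outside this rule and were picked after their values had been seen. The titles number replicates 1 to 3 in each group. Residuals of same-numbered libraries over 12625 genes correlated at 0.130, 0.416 and 0.146 between ERβ1 + CLI and ERβ1 cells, each over 0.1, so these numbers were taken as pairs by the rule used, and at -0.0883 to 0.0612 in the comparisons with control cells, which were not. Unless a block is named, the fits reported have none, so their intervals between ERβ1 + CLI and ERβ1 cells take no account of the pairs.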

Additional observations from a re-analysis of the deposited data

How the results depend on the processing

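In DESeq2, CXCL10 and CCL5 had no adjusted p between ERβ1 + CLI and ERβ1 cells and were counted as not passing. Of 464 single-gene values under the alternatives, 430 kept their direction and side of the threshold, 27 no longer passed, 3 newly passed and 4 changed sign. The 4 were small differences between ERβ1 + CLI and ERβ1 cells: CXCL1 at -0.0086 without ERβ1 + CLI replicate 3 (-0.0086 to 0.176 over the libraries left out) and -0.046 when summed with CXCL2 and CXCL3, and CXCL16 at -0.16 without ERβ1 replicate 2 and -0.08 without ERβ1 + CLI replicate 1 (-0.162 to 0.34). Their cause was not tested. CXCR4, CXCL1 and CXCL8 passed over control cells in all alternatives run. CXCL10 in ERβ1 cells no longer passed without a filter (adjusted p = 0.07), and CXCL3 in ERβ1 + CLI cells no longer passed without a filter (0.0557) or in the 6 libraries alone (0.0634), in edgeR. CXCL2 in ERβ1 + CLI cells passed with upper quartile scaling (0.0472) and with a filter of 1 CPM (0.0416). Of the 10 genes, 4 to 7 passed in ERβ1 cells and 4 to 6 in ERβ1 + CLI cells over control cells, and 0 between those groups, when 1 library was left out. The 4 in ERβ1 cells came without control replicate 2 and without ERβ1 replicate 3.

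Between ERβ1 + CLI and ERβ1 cells, 178 genes rose and 73 fell in all. These became 366 and 275 in DESeq2, 104 and 32 with the replicate block, 60 and 6 with the block within the 6 libraries, and 56 and 16 without replicate 2 of both groups, these last settings added after seeing the data. The 6 libraries alone gave 29 falls. Leaving out 1 library gave 91 to 151 rises and 23 to 60 falls. Over control cells, leaving out 1 library gave 1357 to 1866 rises and 1160 to 1783 falls in ERβ1 cells, and 1767 to 2229 rises and 1597 to 2218 falls in ERβ1 + CLI cells. With the replicate block 7, 0 and 5 of the 10 genes passed in ERβ1 over control, ERβ1 + CLI over ERβ1 and ERβ1 + CLI over control cells, as without it. CXCL10, CCL2, CCL5 and CCL20 had at most 17 counts per library, which limits what could be detected.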
